A study of Mus musculus with 23 samples.

Results

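The replication-dependent histone genes were taken as all symbols of the deposited expression table that begin with Hist1h, Hist2h, Hist3h or Hist4h, which gave 67 of its 24029 genes. They comprise 6 H1, 18 H2A, 18 H2B, 12 H3 and 13 H4 genes, and 53 carry a Hist1, 10 a Hist2, 3 a Hist3 and 1 a Hist4 name. RNA came from C3H10T1/2, a mouse mesenchymal stem cell line of strain C3H that can be turned into fat cells. All cells received 8.3 nM BMP7 for 3 days before differentiation. The day 0 group was pre-adipocytes at that point. The day 7 group was adipocytes induced until day 2 with 5 uM DEX, 0.5 mM IBMX, 0.12 ug/ml insulin, 1 uM of a compound labelled Rosi and 1 nM T3, and then kept on insulin, Rosi and T3. Each day has a standard library, made from mRNA captured on oligo(dT) beads, fragmented and copied with random hexamers, and a library labelled N9 made by TELP, a library construction method for small inputs. Day 7 also has TELP libraries labelled N9_ss and T18, and what N9, ss and T18 stand for is not said in the labels. Every group is 1 library of 1 cell line, so no value has a replicate error and a difference is described by its size only.

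Apart from the transcribed pseudogene Hist3h2bb-ps, these genes encode linker histone H1 and core histones H2A, H2B, H3 and H4, which package newly copied DNA. Most are transcribed in S phase, lack introns and give mRNAs that end in a conserved stem-loop bound by Slbp in place of a poly(A) tail. Some members, among them Hist1h1c, Hist1h2bc and Hist2h2be, are also known to give polyadenylated transcripts, and such transcripts are known from differentiated cells that have left the cell cycle. Capture on oligo(dT), as in the standard libraries, selects RNA with a poly(A) tail or an A-rich stretch. The name rule also takes in Hist1h1t, Hist1h2aa and Hist1h2ba, which are known from testis.

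The promoters of the histone types differ in the short motifs that they carry, and the sequences below show this for genes that the results turn on. All 67 symbols matched RefSeq genes, and 61 had a promoter in RefSeq (GRCm38.p6, a later build than the mm9 of the expression values). Each line gives the 150 bases before the annotated start, 5′ to 3′. Capitals mark any match, on either strand, to one of 5 motifs, none of which contains another. CCAAT is the box bound by NF-Y. The TATA box was searched for as TATAAA. The core of the H4 site that Hinfp binds was searched for as GGTCC. The H1 box was searched for as AAACACA. The octamer bound by Pou2f1 was searched for as ATTTGCAT.
Hist1h4h (chr13:23530894-23531043, plus strand): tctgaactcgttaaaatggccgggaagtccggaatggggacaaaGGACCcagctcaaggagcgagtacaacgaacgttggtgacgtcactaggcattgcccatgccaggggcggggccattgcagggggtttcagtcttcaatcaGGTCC
Hist1h4j (chr13:21734884-21735033, plus strand): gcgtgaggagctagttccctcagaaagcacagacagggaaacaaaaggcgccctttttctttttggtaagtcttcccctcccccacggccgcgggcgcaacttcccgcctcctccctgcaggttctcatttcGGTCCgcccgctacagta
Hist1h4c (chr13:23698459-23698608, minus strand): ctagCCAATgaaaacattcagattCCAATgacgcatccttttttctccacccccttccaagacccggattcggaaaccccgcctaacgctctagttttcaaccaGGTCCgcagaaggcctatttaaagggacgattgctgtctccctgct
Hist1h1c (chr13:23738657-23738806, plus strand): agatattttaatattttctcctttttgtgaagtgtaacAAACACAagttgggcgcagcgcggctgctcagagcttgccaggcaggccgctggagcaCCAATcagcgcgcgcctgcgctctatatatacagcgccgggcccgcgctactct
Hist1h2bg (chr13:23571250-23571399, plus strand): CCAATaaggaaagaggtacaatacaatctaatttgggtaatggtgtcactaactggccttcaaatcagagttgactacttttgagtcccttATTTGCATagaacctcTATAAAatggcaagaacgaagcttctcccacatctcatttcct
Over the 250 bases before the start, GGTCC was found in 11 of 12 H4 promoters, against 39.8% of the 32851 promoters of all genes, and in 24 of the 61 members. CCAAT showed the reverse arrangement: it was in all 6 H1, all 18 H2A and all 15 H2B promoters, in 8 of 10 for H3 and in 3 of 12 for H4, against 33.8% of all promoters. AAACACA was in 5 of 6 H1 promoters and in 6.25% of all. ATTTGCAT was in 7 of 18 H2A and 7 of 15 H2B promoters, in no promoter of the other 3 types and in 1.60% of all. TATAAA was in 29 of the 61 promoters and in 12.4% of all. H2A and H2B genes that lie head to head share parts of these windows, so their matches are not separate counts.

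The unit was RPKM, reads per kilobase of gene model scaled to the read total of the library. The depth estimate below deducted 204 bp from gene lengths. This weighs most on short genes, so levels compare only roughly between genes, or histone types, of unlike length. Steps in the low values put the depth at about 14.5 and 14.2 M (mega) reads for the standard libraries of day 0 and day 7, 22.8 and 5.53 M for N9, 5.79 M for N9_ss and 4.79 M for T18. The 10 most abundant genes held 7.56% and 9.80% of all RPKM in the standard libraries, 15.2% and 32.8% in N9, 31.6% in N9_ss and 79.8% in T18. All 8 adipocyte markers, Fabp4 and Adipoq among them, were higher at day 7 in both library types. Of the 5 preadipocyte and mesenchymal markers, 2 were lower by 1 log2 unit or more in the standard and 5 in the N9 libraries. Of all genes, 3.15% and 14.8% were. Markers of macrophages and leukocytes summed to between 0.944 and 6.19 RPKM, and those of endothelium to between 0 and 11.3 RPKM, of which Tek gave 11.2 RPKM. Markers of muscle, osteoblasts and chondrocytes were present at day 0. Acta1, Runx2 and Sox9 stood at 11.9, 15.5 and 47.7 RPKM in the standard library and at 36.5, 16.5 and 72.9 RPKM in N9. These genes and Col2a1 were lower at day 7 by 1 log2 unit or more in both library types, and Des was higher in N9 only.

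Histone RNA was a small part of every library and larger at day 7. With the standard method the 67 genes summed to 234.5 RPKM at day 0 and 496 RPKM at day 7, and in N9 to 317 and 900 RPKM. As a share of all RPKM this was 0.0678% and 0.145%, and 0.0774% and 0.154%. The N9_ss and T18 libraries of day 7 summed to 871 and 471 RPKM, or 0.149% and 0.0809% of the total. Between 33 and 53 members reached 1 RPKM in a library. Between 3 and 6 were listed at 0, and none was listed at 0 in all 6 libraries.

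**Figure D1:**
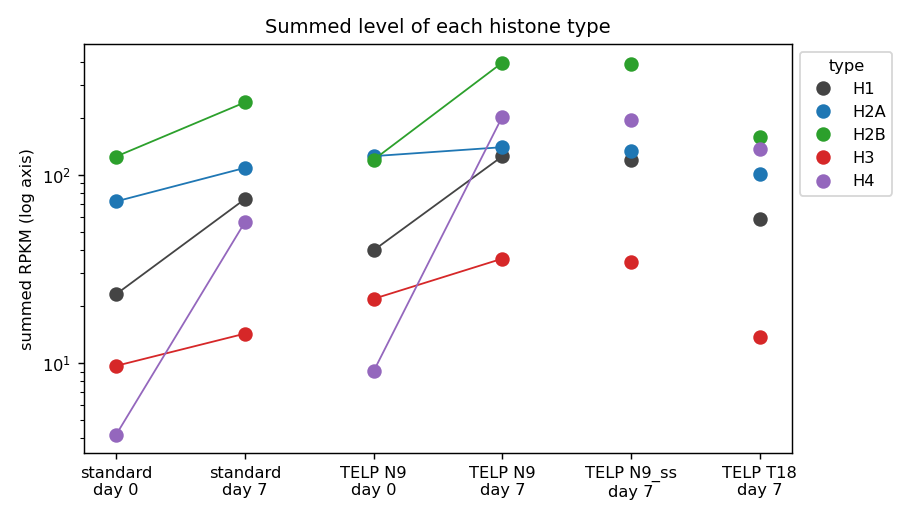
Summed RPKM of the genes of each histone type in the 6 libraries, on a log axis, with lines joining day 0 to day 7 of the same library type. The standard H4 sums are 4.16 and 56.0 RPKM and the N9 ones 9.05 and 204 RPKM, while those of H2A are 72.3 and 109 RPKM, and 126 and 140 RPKM.

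The first comparison asked how histone RNA differed between adipocytes and pre-adipocytes. Differences are given as log2(RPKM + 1) at day 7 minus day 0, and a gene counts as higher or lower from 1 log2 unit on. This scale understates the change of genes with low values. In the standard libraries 19 of 67 members were higher and 1 was lower, against 4.03% and 3.15% of all 24029 genes. In N9, 29 members were higher and 3 lower, against 6.81% and 14.8% of all genes. The median over the 67 members was 0.74 in the standard libraries and 0.83 in N9, and that over all genes of the table, many of them at or near 0, was 0.00 in both. Over genes averaging 1 RPKM or more in the libraries compared, the 45 and 49 members in that set had medians of 0.92 and 1.35, and all genes in it -0.18 and -0.45. Some members, such as Hist1h4a at 0.103 and 2.85 RPKM in the standard libraries, are in that set only through their day 7 level. The choice can thus raise the member medians, which are no separate support. The members called higher in both library types numbered 18, against 3.47% of all genes, and 1 was lower in both, against 2.82%. The 18 were 10 of 13 H4, 3 of 6 H1, 5 of 18 H2B, none of 18 H2A and none of 12 H3 genes. In bulk RNA, a larger share of cells with these transcripts and more of them per cell cannot be told apart.

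With library type as a block, limma on these 4 libraries had 1 residual degree of freedom and passed no member at an adjusted p of 0.05, while 82 genes passed as higher and 12 as lower. The lowest adjusted p among members was 0.0586, for Hist1h4h, and 30 of the 47 members fitted had an unadjusted p under 0.05, as did 3014 of all 11474 genes fitted. Of the 30, 29 were higher at day 7. The fits took genes averaging 1 RPKM or more over the 4 libraries. Some H4 genes low at day 0, such as Hist1h4a and Hist1h4c, entered only through their day 7 levels, so this tally is no separate support. With a mean-variance trend in limma, Hist1h4h passed, at an adjusted p of 0.042. The spread in these fits comes from the pair of library types and says nothing of cultures. The day differences of the 67 members in the standard and in the N9 libraries, which share no library, had a Pearson r of 0.87 and a Spearman rho of 0.78 across genes. Within types both r and rho were lower for H2A, at 0.65 and 0.31, and H3, at 0.32 and 0.10. They were 0.96 and 0.53 for H2B, 0.84 and 0.90 for H4, and 0.98 and 0.93 for H1. Members are not independent points, since near-identical genes share reads.

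**Figure D2:**
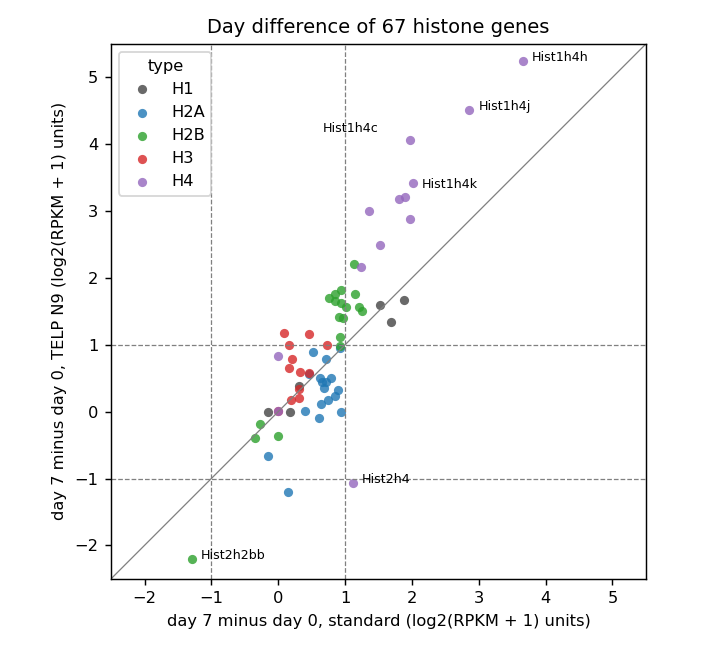
Difference in log2(RPKM + 1), day 7 minus day 0, in the N9 libraries against the standard libraries, with 1 point per member coloured by histone type and dashed lines at 1 and -1. Hist1h4h lies farthest out, at 3.66 and 5.25, and Hist2h2bb is the member past -1 on both axes.

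H4, a core histone with several genes that encode one protein sequence, was the type that differed most. Its 13 genes summed to 4.16 RPKM at day 0 and 56.0 RPKM at day 7 in the standard libraries, 13.5 times higher, with a 95% counting interval of 7.78 to 27.5. In N9 they summed to 9.05 and 204 RPKM, 22.5 times higher, with an interval of 16.1 to 31.8. These exact (Clopper-Pearson) intervals use estimated reads rounded to whole numbers, which were 12 and 170 for the standard method and 42 and 240 for N9, and cover counting error only. With libraries scaled to equal totals the standard and N9 ratios were 13.6 and 15.8, and with scaling by median of ratios 14.9 and 32.6. Scaling thus took the N9 ratio past either end of its interval. H4 made up 1.78% of histone RPKM at day 0 and 11.3% at day 7 with the standard method, and 2.86% and 22.6% in N9. At day 0 no H4 gene had 5 estimated reads in the standard library and 1 did in N9, against 10 in each at day 7. The H4 genes called higher in both types were Hist1h4a, b, c, d, f, h, i, j, k and n.

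Hist1h4h had the largest day difference of all members in both library types. Its level was 0.412 RPKM at day 0 and 16.9 RPKM at day 7 in the standard libraries, 0.516 and 56.5 RPKM in N9, 54.0 RPKM in N9_ss and 24.1 RPKM in T18. The gene was named for its rise in both library types, so higher day 7 values there are no separate support. N9_ss is no separate measurement from N9, as described further on. The differences were 3.66 and 5.25 on the log2 scale, and the ratios of levels were 40.9 (counting interval 9.79 to 2285) and 109.6 (32.5 to 490.0), because the day 0 values rest on about 1 and 3 reads.

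Hist1h4j stood at 0.233 and 7.95 RPKM by the standard method, 0.544 and 34.3 RPKM in N9, 32.8 RPKM in N9_ss and 17.7 RPKM in T18. Hist1h4c stood at 0.151 and 3.50 RPKM, 0.353 and 21.7 RPKM, 20.8 RPKM and 8.11 RPKM in the same order. Hist1h4k stood at 0.126 and 3.53 RPKM, 0.367 and 13.7 RPKM, 13.1 RPKM and 7.27 RPKM. These 3 genes, too, were named for their rise in both library types. The log2 differences were 2.86 and 4.52 for Hist1h4j, 1.97 and 4.07 for Hist1h4c, and 2.01 and 3.42 for Hist1h4k. Hist1h4i was the H4 gene with the highest day 0 levels, with 1.38 and 5.83 RPKM by the standard method and 3.39 and 23.8 RPKM in N9, and with 22.7 RPKM in N9_ss and 25.4 RPKM in T18. Its differences, 1.52 and 2.50, were smaller than those of the other 4.

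The GGTCC motif was in 9 of the 10 called H4 genes with a promoter and in both of the other H4 genes with one. With 2 genes to compare against, these counts cannot tell whether the motif sets the called genes apart. Of the printed sequences, Hist1h4h holds it in both orientations, 106 and 5 bases before the start, Hist1h4j 18 bases and Hist1h4c 46 bases before it. The H4 genes outside the 10 were Hist1h4m, Hist2h4 and Hist4h4. Hist2h4 was listed at 0 in the standard day 0 library and stood at 1.17 RPKM at day 7, but stood at 1.09 RPKM at day 0 and was listed at 0 at day 7 in N9 and in N9_ss, and at 13.4 RPKM in T18. Hist4h4 was listed at 0 in both standard libraries, in N9 day 0 and in T18, and stood at 0.773 RPKM in N9 day 7 and 0.739 RPKM in N9_ss.

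**Figure D3:**
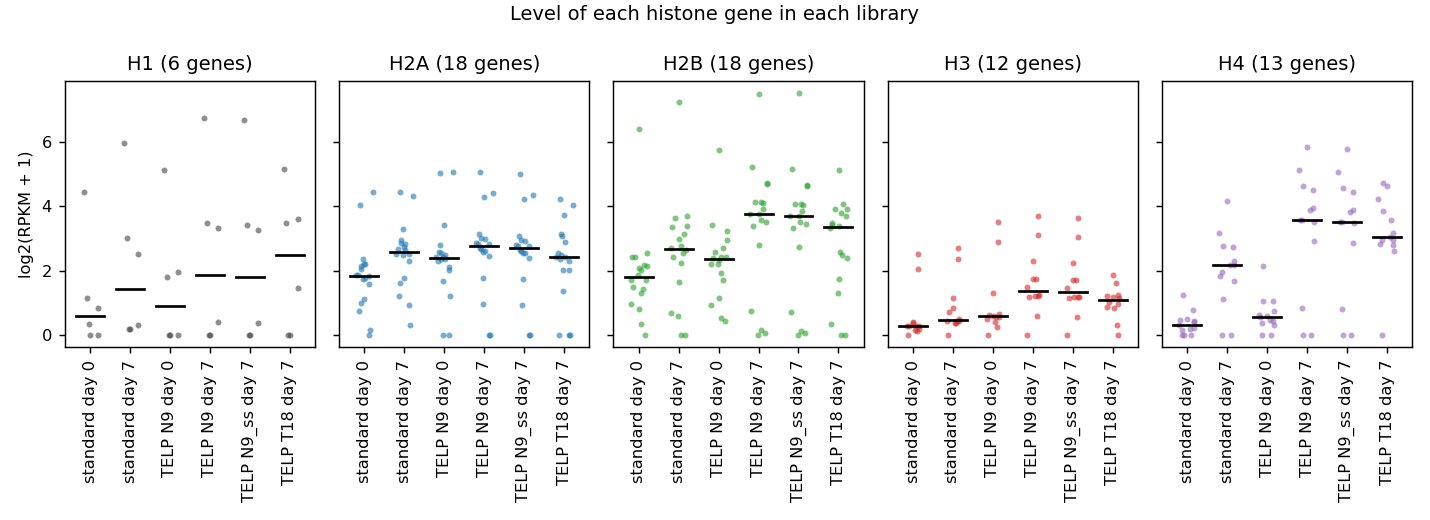
Level of each member as log2(RPKM + 1) in the 6 libraries, in panels by histone type, with a black bar at the median of the type. The H4 points lie near 0 at day 0 and move up at day 7, while the H3 points stay low apart from a few members.

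H1, the linker histone that binds DNA between nucleosomes, was carried by 1 gene. Hist1h1c, which encodes H1.2, held between 60% and 90% of H1 RPKM in each library. Its standard levels of day 0 and day 7 were 21.0 and 61.9 RPKM, followed by 34.3 and 106 RPKM in N9, 101 RPKM in N9_ss and 35.2 RPKM in T18. The day 7 value was higher by 1.52 and 1.60 log2 units, while T18 came close to the N9 level of day 0. Hist1h1e stood at 1.20 and 7.09 RPKM, 2.51 and 10.2 RPKM, 9.71 RPKM and 10.2 RPKM in the same order, and Hist1h1d at 0.789 and 4.76 RPKM, 2.93 and 8.99 RPKM, 8.59 RPKM and 11.2 RPKM. The day differences were 1.88 and 1.67 for Hist1h1e, which encodes H1.4, and 1.69 and 1.35 for Hist1h1d, which encodes H1.3. The summed H1 level was 3.20 times higher at day 7 in the standard libraries and 3.16 times in N9. These ratios were 3.24 and 2.21 with equal totals, and 3.54 and 4.57 by median of ratios.

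H2A and H2B form a dimer and lie largely in head-to-head gene pairs, yet they differed between the days to unequal degrees. The H2B sums of day 0 and day 7 were 125 and 243 RPKM with the standard method, and 120 and 395 RPKM in N9. The H2A sums were 72.3 and 109 RPKM, and 126 and 140 RPKM. The small H2A difference in N9, a ratio of 1.12, became 0.781 with libraries scaled to equal totals and 1.62 by median of ratios. Its direction thus depends on the scaling. The type medians of the log2 difference were 0.92 and 1.53 for H2B and 0.68 and 0.33 for H2A. The last of these was -0.03 with equal totals and 0.71 by median of ratios. In N9, 13 of 18 H2B genes were higher and no H2A gene was, and by median of ratios 14 and 2 were. The H2B genes called higher in both library types were Hist1h2ba, Hist1h2bb, Hist1h2be, Hist1h2bg and Hist1h2bp.

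Hist1h2bc, the H2B gene with the highest level in all 6 libraries, stood at 84.3 and 153 RPKM by the standard method, 52.6 and 181 RPKM in N9, 184 RPKM in N9_ss and 34.5 RPKM in T18. It held 67.3% of H2B RPKM in the standard day 0 library and 21.6% in T18. Its day differences were 0.85 and 1.76. Hist1h2bj stood at 4.36 and 9.31 RPKM, 9.77 and 36.9 RPKM, 35.3 RPKM and 9.83 RPKM, and was called in N9, at 1.81, but not in the standard libraries, at 0.94. Hist1h2bg, whose printed promoter holds CCAAT, the octamer and the TATA box, stood at 4.86 and 12.0 RPKM, 6.78 and 25.2 RPKM, 24.1 RPKM and 14.1 RPKM, with differences of 1.15 and 1.75. Hist2h2be, another H2B gene with a described poly(A) form, stayed between 0.261 and 0.949 RPKM. Hist2h2bb was the member lower in both types, with 2.64 and 0.487 RPKM by the standard method, 3.60 RPKM in N9 day 0, 1.45 RPKM in T18, and a listed 0 in N9 day 7 and N9_ss.

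The 9 head-to-head H2A and H2B pairs of the Hist1 cluster, as RefSeq places them, gave the same order gene by gene. The H2B gene had the larger day difference in 9 of 9 pairs in the standard libraries, with medians of 0.69 for H2A and 0.94 for H2B, and in 9 of 9 in N9, with medians of 0.44 and 1.56. The pairs are not separate observations, since near-identical genes share reads, and their genes also enter the type medians given above. One such pair is Hist1h2ae and Hist1h2bg, at 0.72 and 1.15 by the standard method, and 0.79 and 1.75 in N9. Another is Hist1h2ag and Hist1h2bj, at 0.89 and 0.94, and 0.32 and 1.81. The median ratio of the H2B to the H2A level was 1.19 and 1.39 in the standard libraries, 1.34 and 3.00 in N9, 3.00 in N9_ss and 3.36 in T18. The pairs stood closest to equal levels in the standard day 0 library.

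**Figure D4:**
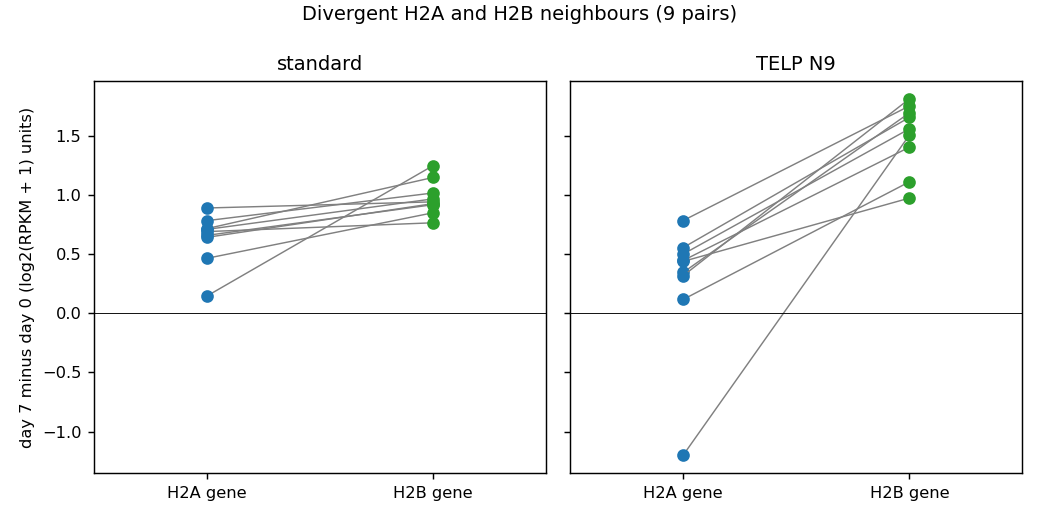
Day difference in log2(RPKM + 1) of the H2A and the H2B gene of each of 9 head-to-head pairs, in the standard and the N9 libraries, with a line joining the partners. The H2B end of the line is the higher one in all 9 pairs in both panels.

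The H2A genes with the highest levels lay outside the Hist1 cluster. Hist2h2aa1 stood at 15.7 and 21.1 RPKM by the standard method, 32.3 and 32.4 RPKM in N9, 31.0 RPKM in N9_ss and 17.9 RPKM in T18. Hist3h2a stood at 21.0 and 18.8 RPKM, 32.6 and 20.2 RPKM, 19.3 RPKM and 15.3 RPKM. For both genes the library type moved the level at day 0 more than the day did in the standard libraries. The day differences of Hist3h2a, -0.15 and -0.66, were below 0 in both library types. By cluster, the median day difference was 0.85 and 1.16 over the 53 Hist1 genes, 0.36 and 0.00 over the 10 Hist2 genes, and -0.15 and -0.40 over the 3 Hist3 genes. Of these last, Hist3h2ba and the pseudogene Hist3h2bb-ps stood at 0.453 RPKM or less in every library.

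H3 was the type with the lowest levels at day 7. The 9 Hist1h3 genes lay between 0.0772 and 0.324 RPKM in the standard day 0 library and between 0.294 and 1.20 RPKM at day 7, with medians of 0.218 and 0.364 RPKM. In N9 their medians were 0.487 and 1.35 RPKM, in N9_ss 1.29 RPKM and in T18 1.05 RPKM. At these levels the 1 RPKM added before taking logs holds differences below the threshold, and no H3 gene was called in the standard libraries and 3 were in N9. The Hist2 genes Hist2h3c2 and Hist2h3b held most of the H3 signal in all libraries but T18. Hist2h3c2 stood at 4.74 and 5.52 RPKM by the standard method, 10.6 and 12.0 RPKM in N9, 11.5 RPKM in N9_ss and 0.0025 RPKM in T18. Hist2h3b stood at 3.12 and 4.11 RPKM, 6.44 and 7.62 RPKM, 7.28 RPKM and 1.35 RPKM. Both were higher in N9 than in the standard library of the same day, and lowest in T18.

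Near-identical copies limit what can be said of single members. Estimated reads came out whole, within 0.03 reads, for 7 of 8 H1 values above 0 and under 20 reads, but for 4 of 50 H2A, 6 of 35 H2B, 6 of 55 H3 and 7 of 47 H4 values. In 6 members a value above 0 but under 0.01 RPKM was listed in some library, and copies could move against each other. Hist1h2ap stood at 0.663 and 1.30 RPKM by the standard method, 4.95 and 7.75 RPKM in N9, 7.41 RPKM in N9_ss and 0.0068 RPKM in T18, while Hist1h2ao stood at 4.17 and 8.80 RPKM, 9.9e-06 and 0.940 RPKM, 0.898 RPKM and 7.51 RPKM. Their sum was 4.83 and 10.1 RPKM, 4.95 and 8.69 RPKM, 8.31 RPKM and 7.52 RPKM. The sum differed far less between libraries of day 7 than either gene did. Hist2h3c1 and Hist2h3c2 summed to 12.0 RPKM in N9 day 7 and 1.33 RPKM in T18, so here the sum differed as well. Hist1h4m and Hist1h4n summed to 0.693 and 5.65 RPKM by the standard method and 1.09 and 14.4 RPKM in N9.

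Genes that work with the histones were called in the same direction by both library types about as rarely as all genes, of which 3.47% were higher and 2.82% lower in both. Of 19 genes of histone mRNA processing and transcription, Lsm1, which takes part in decay of histone mRNA, was higher in both library types, at 1.07 and 1.32, and none was lower in both. Slbp, the stem-loop binding protein, stood at 14.1 and 15.8 RPKM by the standard method, 14.8 and 11.9 RPKM in N9, 11.4 RPKM in N9_ss and 2.13 RPKM in T18. Npat, the coactivator of histone transcription, stood at 5.63 and 4.43 RPKM, 6.05 and 1.35 RPKM, 1.41 RPKM and 0.529 RPKM, and was called lower in N9. Slbp thus stayed within 1 log2 unit between the days in both library types.

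Among 12 genes listed as replication-independent histone variants, none was higher in both library types and H2afy3 was lower in both, at -1.06 and -2.33. Their summed level was 857 and 564 RPKM in the standard libraries, 925 and 601 RPKM in N9, 577 RPKM in N9_ss and 204 RPKM in T18. The sum is carried by H3f3a and H3f3b, and single variants differed from it: H2afj stood at 7.78 and 12.8 RPKM by the standard method and 13.8 and 54.9 RPKM in N9, where it was called higher. H3f3a, which encodes H3.3, stood at 368 and 231 RPKM, 385 and 230 RPKM, 220 RPKM and 76.0 RPKM, and H3f3b, its second gene, at 251 and 138 RPKM, 256 and 119 RPKM, 115 RPKM and 62.4 RPKM. H2afz stood at 20.8 and 23.8 RPKM, 34.4 and 21.0 RPKM, 20.1 RPKM and 8.24 RPKM, and H1f0, the linker histone of resting cells, at 85.3 and 63.9 RPKM, 98.8 and 98.8 RPKM, 94.4 RPKM and 29.4 RPKM. All 4 were lowest in T18.

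The 25 S phase genes, such as Pcna and the Mcm helicase subunits, went different ways in the library types. In the standard libraries 3 were higher at day 7 (Ccne1, Ccne2 and Rrm2), none was lower and the median difference was 0.47. In N9 1 was higher, 13 were lower and the median was -1.07, where 14.8% of all genes, and 29.9% of those averaging 1 RPKM or more, were lower. Their sum was 228 and 303 RPKM in the standard libraries, 241 and 115 RPKM in N9, 118 RPKM in N9_ss and 36.5 RPKM in T18. Histone H4 and H1 sums were higher at day 7 in both library types, while the S phase sum was higher in one and lower in the other. The part of S phase in the histone difference was not tested. Of 17 histone chaperones, which carry histones to DNA, 2 were higher in the standard libraries, where 4.03% of all genes were, and 8 were lower in N9, against the same 14.8% and 29.9%.

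The second comparison asked how the library methods differ at the same day. At day 0, 9 members were higher in N9 than in the standard library and 1 was lower, against 1.09% and 0.362% of all genes. At day 7, 24 members were higher and 2 lower, against 3.53% and 8.1% of all genes. With libraries scaled to equal totals the day 7 counts were 8 higher and 3 lower, and by median of ratios 33 and 1. The 24 were 10 H4, 8 H2B, 3 H2A and 3 H3 genes, and no H1 gene was among them. Summed H4 was 3.64 times higher in N9 than in the standard library at day 7 and summed H3 2.50 times, while summed H2A was 1.29 times higher. With equal totals these ratios were 2.13, 1.46 and 0.753, so that the direction of H2A turned. The summed H2B and H1 ratios, 1.63 and 1.69 as deposited, also turned with equal totals, to slightly below equal levels. By median of ratios none turned. The ratios were then 4.68, 3.21 and 1.65 for H4, H3 and H2A, and 2.09 and 2.17 for H2B and H1. Of the 8 members called higher with equal totals, 5 were H4 genes and 1 was an H2B gene. As deposited, Hist1h2bc was lower in N9 than in the standard library at day 0, at 52.6 RPKM against 84.3 RPKM. The signed day difference was higher in N9 than in the standard libraries for 44 of 67 members: 12 of 13 H4, 15 of 18 H2B and 10 of 12 H3 genes, but 4 of 18 H2A genes. These comparisons share libraries with the day comparison and are no separate evidence.

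The N9_ss library gave almost no separate measurement of these genes. No member was called higher or lower against N9, and 0.00832% and 0.00416% of all genes were. Of the 62 members above 0 in both, 61 had the same ratio of N9_ss to N9, 0.956 within 0.1%, which is the ratio of what 1 read is worth in each, so their estimated read numbers were equal. The exception was Hist1h2bc, at 181 RPKM in N9 and 184 RPKM in N9_ss. Over all 13980 genes above 0 in both, 38.9% had that ratio. How the N9_ss library relates to the N9 library is not given in the labels.

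The third comparison set the T18 library against the other day 7 libraries. Against N9, 6 members were higher and 12 lower, where 0.424% of all genes were higher and 34.9% lower. Of the genes averaging 1 RPKM or more over the compared libraries, 83.4% were lower, and that set holds 56 members with all 12 of the lower ones. Some members, such as Hist2h4, are in that set only through their T18 level. The 6 higher members, Hist1h1b, Hist1h2ao, Hist2h2bb, Hist2h3c1, Hist1h4m and Hist2h4, all stood under 1 RPKM in N9 day 7, and with copies summed the count was 3. The median was -0.36 over the 67 members and -0.14 over all genes of the table, and -0.42 over the 56 members and -1.77 over all genes in the set averaging 1 RPKM or more. Against the standard library 15 members were higher and 4 lower, where 0.57% of all genes were higher, 40.5% lower, and 88.9% lower among those averaging 1 RPKM or more. The medians were 0.23 over the 67 members and -0.28 over all genes, and 0.29 over 50 members and -1.96 over all genes averaging 1 RPKM or more. The directions depend on scaling: by median of ratios 44 members were higher and 2 lower against N9 and 54 and 1 against the standard library, and with equal totals 5 and 11, and 4 and 10. Within the set averaging 1 RPKM or more, the member median lay above the gene median by 1.35 log2 units against N9 and 2.25 against the standard library, by 1.58 and 2.72 with median of ratios, and by 1.28 and 2.20 with equal totals. The T18 library is also the one in which the 10 most abundant genes held 79.8% of all RPKM, against 32.8% in N9, and the part of this in the result was not tested.

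**Figure D5:**
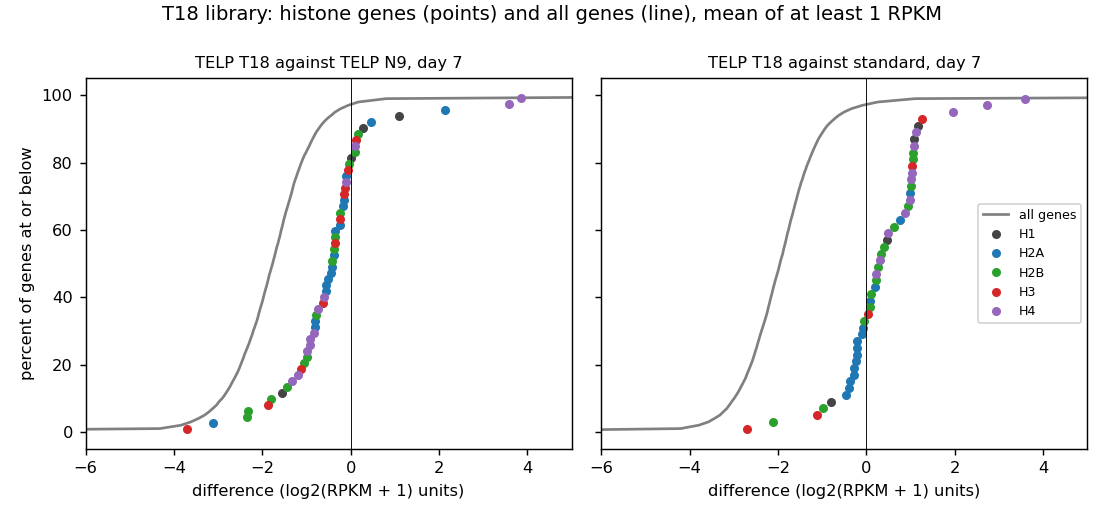
Cumulative share of genes by their difference in log2(RPKM + 1), T18 minus N9 and T18 minus standard at day 7, over genes averaging 1 RPKM or more, with the 56 and 50 members in that set as points and all its genes as a line. The members' points lie mostly to the right of the line, with medians of -0.42 against -1.77 and 0.29 against -1.96.

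The histone genes ranked higher among all genes in T18 than in the other libraries. In T18, 6797 genes reached 1 RPKM, against 10351 in N9 day 7 and 11112 in the standard day 7 library. The part of this in the rank was not tested. The median member ranked at percentile 53.6 and 64.2 of all genes in the standard libraries of day 0 and day 7, 58.0 and 74.9 in N9, 74.2 in N9_ss and 89.5 in T18. The median level was 0.992 and 3.96 RPKM, 2.29 and 6.53 RPKM, 6.24 RPKM and 4.62 RPKM in the same order. T18 thus had a lower median level than N9 but a higher rank.

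Members with much RNA in N9 differed among themselves in T18. Hist1h2bc was lower in T18 than in N9 by 2.36 log2 units and than in the standard library by 2.12. Hist1h1c was lower than in N9 by 1.56 and Hist1h2bj by 1.81. Hist2h3b was lower by 1.88. Hist1h4i, at 0.09, Hist3h2a, at -0.38, and Hist2h2aa1, at -0.82, stood within 1 log2 unit of N9. Hist2h3c2, at -3.70, and Hist1h2ap, at -3.12, also belong to pairs that share reads, and the summed pairs gave -2.48 and -0.19. At the other end stood Hist1h2ag, with 3.16 and 6.71 RPKM by the standard method, 4.12 and 5.39 RPKM in N9, 5.15 RPKM in N9_ss and 7.81 RPKM in T18. Hist1h2bn stood at 2.27 and 5.23 RPKM, 4.33 and 10.5 RPKM, 10.1 RPKM and 12.0 RPKM. Together with Hist1h1d these were the 3 highest differences of T18 from N9 among the 42 members with at least 5 RPKM in N9, at 0.46, 0.17 and 0.29 for Hist1h2ag, Hist1h2bn and Hist1h1d, and of the 42 none was called higher and 11 lower. The median of the 42 was -0.59, against -2.06 for all 6845 genes at that level, a choice by N9 level that favours lower values in T18. H4 made up 29.2% of histone RPKM in T18, its largest share in the 6 libraries. The processing, variant, chaperone and S phase lists had 11 of 19, 8 of 12, 11 of 17 and 11 of 25 genes lower in T18 than in N9, and none higher, against 34.9% of all genes and 83.4% of those averaging 1 RPKM or more.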

How the data were processed

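The authors deposited RPKM values of 24029 genes in all 6 RNA libraries. The mm9 build and the tools TopHat, Cufflinks and Bowtie2 are named per the submitters' processing notes. Not given in the sources used here are the versions and settings, the annotation, the strand handling and the read total behind RPKM. The series lists 23 samples, and its 17 chromatin immunoprecipitation samples were not analysed here. Members and gene lists were chosen with earlier results of these data known. The rule for named genes took the 2 highest genes of each type, the 4 largest rises and all falls shared by the library types, the 3 extremes of T18 minus N9 at 5 RPKM or more, opposite calls, and members with known poly(A) forms. Differences used log2(RPKM + 1) and a threshold of 1, with no filter on low values, so that all 67 members count. An exact 0 can be a failed estimate and is described as listed at 0. Depth was estimated from the whole-read steps of low values, after deducting 204 bp from gene lengths. The scale is approximate, since it rests on 29 of 57 short genes in range, and the N9 day 0 ratio on 34 of 2763 low genes. Promoters came from RefSeq and were matched by symbol. Alternatives were a pseudocount of 0.1 RPKM, a filter at a mean of 1 RPKM, median-of-ratios scaling, equal totals, N9 replaced by N9_ss or by T18, limma with a library type block and, added after seeing the data, limma with a trend and copies summed. Software was Python 3.11.15, pandas 2.3.3, numpy 2.4.6, scipy 1.17.1, matplotlib 3.10.9, R 4.3.3 and limma 3.58.1.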

Additional observations from a re-analysis of the deposited data

Results flagged for a closer look

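Hist2h4, an H4 gene, was called in opposite directions by the library types. Its day 7 minus day 0 difference in log2(RPKM + 1) was 1.12 in the standard libraries, where it was listed at 0 at day 0, and -1.07 in N9, where it was listed at 0 at day 7. The other 2 values rest on about 3.01 and 4.48 reads. The difference between the library types was not tested.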

How the results depend on the processing

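No paired analysis was possible because each RNA group has 1 library and the labels number replicates only among the chromatin samples. The limma block below joins the days by library type, not by replicate. Counts of members past the threshold were recomputed under alternatives, and 55 of 88 stayed within 1.5 times the reported count. With a pseudocount of 0.1 RPKM, day 7 against day 0 gave 37 higher and 2 lower in the standard libraries, 5 lower in N9, and 32 higher and 2 lower in both types. It gave 19 higher and 2 lower for N9 against standard at day 0, 7 lower at day 7, 19 lower for T18 against N9, and 24 higher and 9 lower for T18 against standard. With a mean of at least 1 RPKM, 1 was lower by day in N9 and 1 in N9 against standard at day 7. Median of ratios gave 0 lower by day in the standard libraries, 1 in N9 and 0 in both. It gave 3 higher for N9 against standard at day 0 and 1 lower at day 7, 44 higher and 2 lower for T18 against N9, and 54 higher and 1 lower for T18 against standard. Equal totals gave 8 higher for N9 against standard at day 7, and 4 higher and 10 lower for T18 against standard. T18 in place of N9 gave 5 lower by day. With copies summed, N9 against standard gave 0 lower at day 0 and 1 lower at day 7, and T18 against N9 gave 3 higher. With the library type block, limma passed 0 higher and 0 lower, while 30 of 47 members and 3014 of 11474 genes had an unadjusted p under 0.05, and with a trend 1 higher and 0 lower. The cause was not tested. The median of genes averaging 1 RPKM or more moved by median of ratios from -1.77 to -0.12 for T18 against N9, from -1.96 to -0.08 for T18 against standard, and from -0.45 to 0.01 by day in N9. With equal totals it moved from -0.45 to -0.88 by day in N9 and from -0.23 to -0.91 for N9 against standard at day 7. The number of reads limits the day 0 values of H4 genes.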
